A study of Homo sapiens with 6 samples.

Results

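Transcripts of the enzymes that write and erase DNA methylation were examined in A2780 cells after exposure to TH588. The genes are the 3 DNA methyltransferases *DNMT1*, *DNMT3A* and *DNMT3B*, the 2 UHRF genes *UHRF1* and *UHRF2*, and the 3 TET dioxygenases *TET1*, *TET2* and *TET3*. They were chosen by name and found by their Ensembl identifiers, 8 of the 58336 genes in the table. A2780 is an established human ovarian cancer line grown in RPMI medium with serum, insulin, antibiotics and glutamine. TH588 is a small molecule developed as an inhibitor of MTH1, an enzyme that clears oxidised nucleotides. Cells received TH588 at 6 µM for 48 h or vehicle (DMSO), for which the labels give no time, and polyA RNA was sequenced from biological triplicates, labelled A, B and C in either group. All 6 libraries come from this single line, and the only difference given between the groups is the drug.

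DNA methylation in mammals sits mainly on the cytosine of CpG pairs. After replication the new strand lacks the mark, and UHRF1 recognises these half-marked sites and brings DNMT1, the maintenance methyltransferase, to copy it. DNMT3A and DNMT3B place methylation at sites that had none. The TET enzymes oxidise methylcytosine, after which the mark is lost through replication or removed by base excision repair. DNMT1 and UHRF1 are known to be expressed most in cells that are replicating their DNA.

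Total counts ranged from 83144642 to 98176722 in the DMSO libraries and from 28537837 to 99074175 with TH588, and TH588 replicate A was the shallowest. In that library the small nucleolar RNA *SNORD3A* took 21.94% of the counts, against 7.681% to 12.95% in the other 5. Of the genes read as ovarian, epithelial or mesenchymal markers, the mesenchymal *VIM* was abundant (3586 ± 216 CPM with DMSO, SD, n = 3). Other genes share 24.4% of its exon bases. *PAX8* had 0 counts in all 3 DMSO libraries, and *CDH1*, *WT1* and *KRT8* were at or near 0. The tissue of origin could therefore not be checked with these genes. The 8 markers of blood, endothelial and fibroblast cells summed to 12.47 to 14.21 CPM with DMSO and 14.33 to 15.46 CPM with TH588. *CD3E* had 0 counts in every library, and *PTPRC*, *PECAM1* and *CDH5* were at or near 0.

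Levels are counts per 1e6 counts of the library (CPM) after TMM scaling, which sets libraries of different depth and composition on one scale. Where 3 values are listed for a group, they are those of replicates A, B and C in this order. Differences between the groups are log2 fold changes from edgeR's quasi-likelihood test with Benjamini-Hochberg adjustment over the 15844 genes that passed a filter on low counts, and a gene was called when its adjusted p was under 0.05. All 8 genes passed the filter. *UHRF1*, *DNMT1*, *DNMT3B* and *UHRF2* were lower with TH588, *DNMT3A* and *TET2* were higher, and *TET1* and *TET3* were not called. Over all genes tested, 25.3% were called lower and 24.2% higher, and the 4 lower and 2 higher genes among the 8 have to be read against this high background. The groups did not overlap for 7 of the 8 genes, against 57.7% of all genes tested. The falls of *UHRF1*, *DNMT1* and *DNMT3B* were among the larger ones in the table. Of the genes tested, 0.701% had a lower log2 fold change than *UHRF1*, 3.17% a lower one than *DNMT1* and 5.42% a lower one than *DNMT3B*. Because these are bulk samples, fewer cells expressing a gene and less RNA per cell cannot be told apart.

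**Figure D1:**
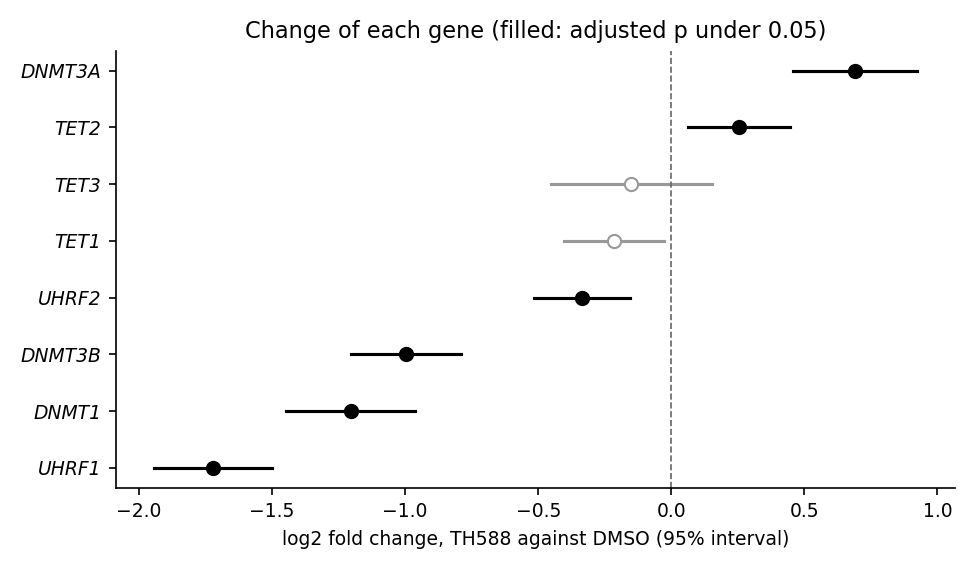
Log2 fold change of each of the 8 genes, TH588 against DMSO (horizontal axis), with its 95% interval, not adjusted for the number of genes. Filled points passed an adjusted p under 0.05 in edgeR's quasi-likelihood test and open points did not. *UHRF1* lies lowest at -1.72 and *DNMT3A* highest at 0.69.

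The maintenance pair showed the largest falls of the 8 genes. *UHRF1* (ENSG00000276043, GRCh38 chromosome 19, 4903080 to 4962154, forward strand), the reader of half-methylated CpG, measured 181.4, 161.3 and 173.2 CPM with DMSO and 45.7, 59.4 and 50.9 CPM with TH588. The lowest DMSO library was far above the highest TH588 library. The mean went from 172 ± 10.1 to 52.0 ± 6.92 CPM (SD, n = 3 each), and the gene fell by 1.72 on the log2 scale (SE, standard error, 0.10, 95% interval -1.94 to -1.50, adjusted p = 1.24e-07 in edgeR's quasi-likelihood test), a 3.30-fold lower level.

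*DNMT1* (ENSG00000130816, chromosome 19, 10133345 to 10231286, reverse strand), the methyltransferase that UHRF1 brings to replicated DNA, was the most abundant of the 8 genes in every library. It measured 907.7, 803.5 and 811.5 CPM with DMSO and 315.5, 430.6 and 347.7 CPM with TH588. All TH588 libraries were thus below all DMSO libraries, with replicate B the highest of the TH588 group. The gene fell by 1.21 on the log2 scale (SE 0.11, 95% interval -1.45 to -0.96, adjusted p = 3.26e-06 in the edgeR test), a 2.31-fold lower level. Exons of *S1PR2* share 0.847% of the exon bases of *DNMT1*. The exons of the other 7 genes overlap those of no other gene in the table.

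The starts of *UHRF1* and *DNMT1* are shown because both hold an 8-letter word that binding sites of E2F factors, regulators of S phase genes, often contain. Windows of 300 bases (250 before and 50 after each start) from RefSeq on GRCh38.p14 were searched on both strands for TTTCCCGC, TTTCGCGC, TTTGCCGC and TTTGGCGC. Of all 35116 windows, 3.31% held at least 1 of these words. Each word contains a CpG pair, and this share was not matched for CpG content or for the number of windows per gene. The 8 genes had 19 windows, and 3 held a word, 2 of the 3 windows of *UHRF1* and the single window of *DNMT1*. Sequences run 5′ to 3′ on the gene's strand and capitals mark the word. The first and the third stretch lie in exons of other transcripts of the same gene in GENCODE, and the second and the fourth lie in introns. The only window of *DNMT3B*, around a start inside the gene at 32779852, held none of the words. Its last 100 bases before that start are given for comparison. The outermost start of *DNMT3B*, at 32762385, lies outside this window and was not searched. The same holds for the outermost starts of *UHRF1* (4903080) and *DNMT1* (10231286).
UHRF1, chr19:4909476-4909505, forward strand, around the start at 4909501: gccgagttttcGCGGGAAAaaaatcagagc
UHRF1, chr19:4909974-4910073, forward strand, before the start at 4910144: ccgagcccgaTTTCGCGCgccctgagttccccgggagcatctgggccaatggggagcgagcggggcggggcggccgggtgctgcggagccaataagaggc
DNMT1, chr19:10194937-10194966, reverse strand, around the start at 10194953: catcggtttccGCGCGAAAagccggggcgc
DNMT3B, chr20:32779752-32779851, forward strand, before the start at 32779852: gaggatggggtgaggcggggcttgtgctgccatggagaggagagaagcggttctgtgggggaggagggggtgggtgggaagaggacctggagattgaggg

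A match is a description of the letters and not a binding site, and the windows of *UHRF2*, *DNMT3A*, *DNMT3B* and the TET genes say only that these words are not in them. The windows of the 8 genes also differed in CpG content, the sequence on which their products act. *UHRF1* windows held 36 to 46 CpG pairs, the *DNMT1* window 30 and the *UHRF2* window 26. Those of *TET3* held 33 to 45, of *DNMT3A* 18 to 46, of *TET2* 13 to 35 and of *TET1* 6 to 11. The *DNMT3B* window, inside the gene, held 3. The median over all windows was 14. The CHR word TTTGAA, associated with cell cycle genes, was found in windows of *DNMT3A* and *TET2* and in 15.2% of all windows. CCAAT was found in windows of *UHRF1*, *DNMT3B*, *TET1* and *TET3* (34.6% of all), and the GC box GGGCGG in windows of *UHRF1*, *UHRF2*, *DNMT3A*, *TET2* and *TET3* (45.0% of all). None of the E2F-type words overlapped another of these motifs.

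*UHRF2* (ENSG00000147854, chromosome 9, 6413151 to 6507054, forward strand), the paralog of *UHRF1* that does not replace it in maintenance, had a smaller log2 fold change. It measured 49.3, 53.7 and 48.4 CPM with DMSO and 37.96, 39.5 and 42.4 CPM with TH588. The groups did not overlap, but the gap between them was narrow. The gene fell by 0.34 on the log2 scale (SE 0.08, adjusted p = 0.00489 in the edgeR test). The call was lost when libraries were scaled by their totals alone, with a log2 fold change of -0.23 (adjusted p = 0.121 in edgeR). That scaling moved the median over all genes from 0.019 to 0.126, and the share of called genes that were higher from 48.9% to 60.4%.

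Per unit of exon length, *UHRF1* stood at 7.09, 5.80 and 6.90 times *UHRF2* with DMSO and at 2.32, 2.90 and 2.32 times with TH588. The excess of *UHRF1* over its paralog was therefore smaller in every treated library. A ratio within a library needs no scaling between libraries, and each was compared by an exact two-sided permutation test, whose smallest possible p with 3 against 3 is 0.1. The *UHRF1* over *UHRF2* ratio reached that limit (log2 difference -1.396, exact permutation p = 0.1, 0.12 after adjustment over 6 ratios). *DNMT1* over *UHRF1* went the other way, from 2.57 ± 0.0933 to 3.68 ± 0.118 (SD, n = 3 each, log2 difference 0.52, exact permutation p = 0.1, adjusted 0.12), and was higher in each treated library than in any control.

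The de novo methyltransferases moved in opposite directions. *DNMT3B* (ENSG00000088305, chromosome 20, 32762385 to 32809356, forward strand), which methylates among others the pericentromeric repeats, measured 58.5, 59.2 and 56.8 CPM with DMSO and 25.1, 32.0 and 30.0 CPM with TH588. Levels with DMSO were nearly the same in the 3 libraries, and each TH588 library was well below them. *DNMT3B* fell by 0.998 on the log2 scale (SE 0.10, 95% interval -1.20 to -0.79, adjusted p = 4.19e-06 in the edgeR test), a 2.00-fold lower level.

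*DNMT3A* (ENSG00000119772, chromosome 2, 25227855 to 25342590, reverse strand), the other de novo enzyme, measured 16.1, 15.1 and 15.3 CPM with DMSO and 25.9, 27.4 and 21.8 CPM with TH588. Every treated library was above every control, with replicate C the lowest of them. The log2 fold change was 0.69 (SE 0.11, 95% interval 0.46 to 0.92, adjusted p = 0.000181 in the edgeR test), a 1.61-fold higher level. This was the highest value among the 8 genes, and 81.5% of all genes tested had a lower log2 fold change.

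The *DNMT3A* over *DNMT3B* ratio, per exon length, was 0.106, 0.0980 and 0.104 with DMSO and 0.397, 0.330 and 0.280 with TH588. On this scale *DNMT3B* remained the more abundant of the pair in all 6 libraries, by a smaller margin after TH588. Without division by length, *DNMT3A* was slightly above *DNMT3B* in TH588 replicate A (25.9 against 25.1 CPM) and below it in the others. The order in that library thus depends on the merged exon lengths, 12020 bases for *DNMT3A* and 4630 for *DNMT3B*. The log2 difference of the ratio was 1.70 (exact permutation p = 0.1, adjusted 0.12). Of the summed methyltransferase level, *DNMT3A* made up 1.29% ± 0.0327 with DMSO and 4.61% ± 0.693 with TH588, while *DNMT1* made up 86.1% ± 0.763 and 81.6% ± 0.977 (SD, n = 3 each). Counts per gene do not separate isoforms, so the catalytically inactive isoforms known for *DNMT3B* and the short isoform of *DNMT3A* are included in these values.

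**Figure D2:**
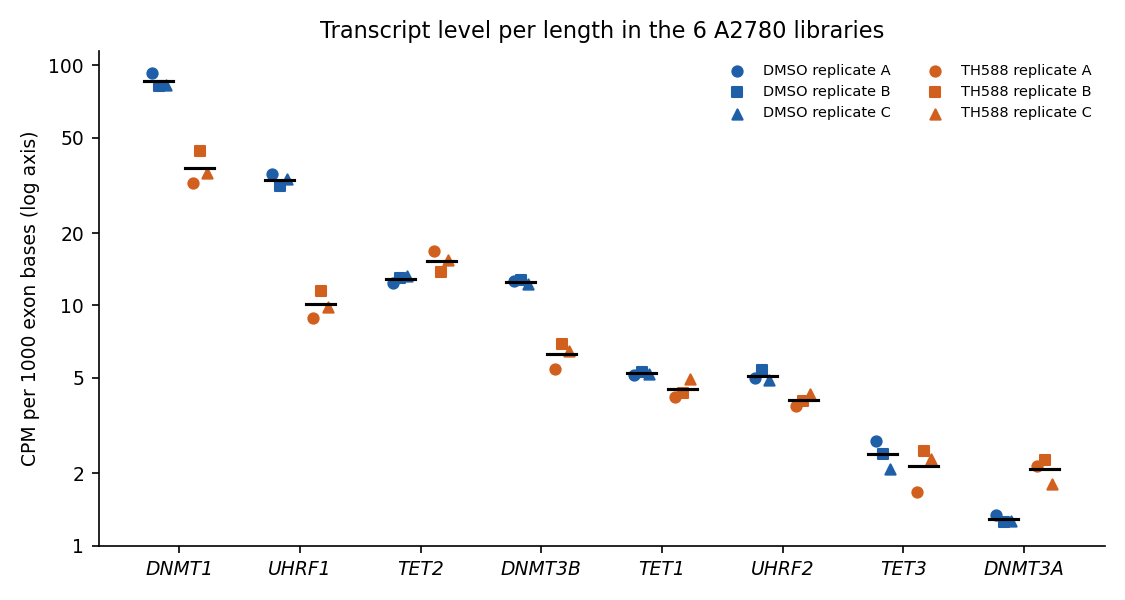
Transcript level per exon length (vertical axis, TMM-scaled CPM per 1000 exon bases, log scale) of the 8 genes in each library. Blue symbols are DMSO and orange symbols TH588, symbol shapes are replicates A, B and C, and bars are means of 3. *DNMT1* is highest in both groups, at 85.8 with DMSO and 37.2 with TH588, and *DNMT3A* lowest, at 1.29 and 2.08.

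Log2 fold changes of the TET genes lay between -0.22 and 0.26. *TET2* (ENSG00000168769, chromosome 4, 105145875 to 105279816, forward strand), a dioxygenase without a CXXC domain of its own, measured 203.6, 214.8 and 217.6 CPM with DMSO and 278.1, 226.2 and 255.2 CPM with TH588. Replicate B of the TH588 group was only a little above the highest control. The log2 fold change was 0.26 (SE 0.09, 95% interval 0.06 to 0.45, adjusted p = 0.0301 in the edgeR test). The call of *TET2* was lost with any 1 DMSO library left out (adjusted p between 0.0510 and 0.0807), with the replicate letter as a block (0.0697) and with a trend on gene length removed (log2 fold change 0.17, adjusted p = 0.138, all edgeR).

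*TET1* (ENSG00000138336, chromosome 10, 68560656 to 68694482, forward strand), which binds CpG-rich DNA through a CXXC domain, measured 47.9, 49.3 and 48.3 CPM with DMSO and 38.6, 40.3 and 46.1 CPM with TH588. The groups did not overlap, with TH588 replicate C close to the controls. The log2 fold change was -0.22 (SE 0.09, 95% interval -0.40 to -0.03, adjusted p = 0.0547 in the edgeR test), just outside the threshold. Without TH588 replicate C it was -0.28 and passed (adjusted p = 0.0258 in edgeR), and it also passed with the gene length trend removed (adjusted p = 0.0365).

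*TET3* (ENSG00000187605, chromosome 2, 73986404 to 74108176, forward strand), the TET enzyme known from the zygote, measured 33.5, 29.5 and 25.7 CPM with DMSO and 20.6, 30.5 and 28.3 CPM with TH588. The groups overlapped, and only TH588 replicate A lay below the controls. The log2 fold change was -0.15 (SE 0.14, 95% interval -0.45 to 0.15, adjusted p = 0.401 in the edgeR test). Without TH588 replicate A it was 0.004, so the sign of this value rested on that library.

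Within each library *TET2* stood at 2.40, 2.46 and 2.54 times *TET1* with DMSO and at 4.06, 3.17 and 3.12 times with TH588 (log2 difference 0.47, exact permutation p = 0.1, adjusted 0.12). The *TET3* over *TET2* ratio overlapped between the groups, with means of 0.188 and 0.143 (log2 difference -0.42, exact permutation p = 0.2, adjusted 0.2). Without TH588 replicate A, which had the lowest ratio (0.0994), the log2 difference was -0.18. The summed TET level was 20.5 ± 0.249 CPM per 1000 exon bases with DMSO and 22.01 ± 1.26 with TH588, and the summed DNMT level 99.7 ± 6.02 and 45.6 ± 6.86 (SD, n = 3 each). The DNMT over TET ratio was 5.27, 4.63 and 4.70 with DMSO and 1.75, 2.59 and 1.92 with TH588. Methyltransferase transcripts exceeded TET transcripts in every library, with a smaller excess in all 3 treated ones (log2 difference -1.24, exact permutation p = 0.1, adjusted 0.12). *DNMT1* makes up most of the DNMT sum, so this ratio largely follows that gene.

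**Figure D3:**
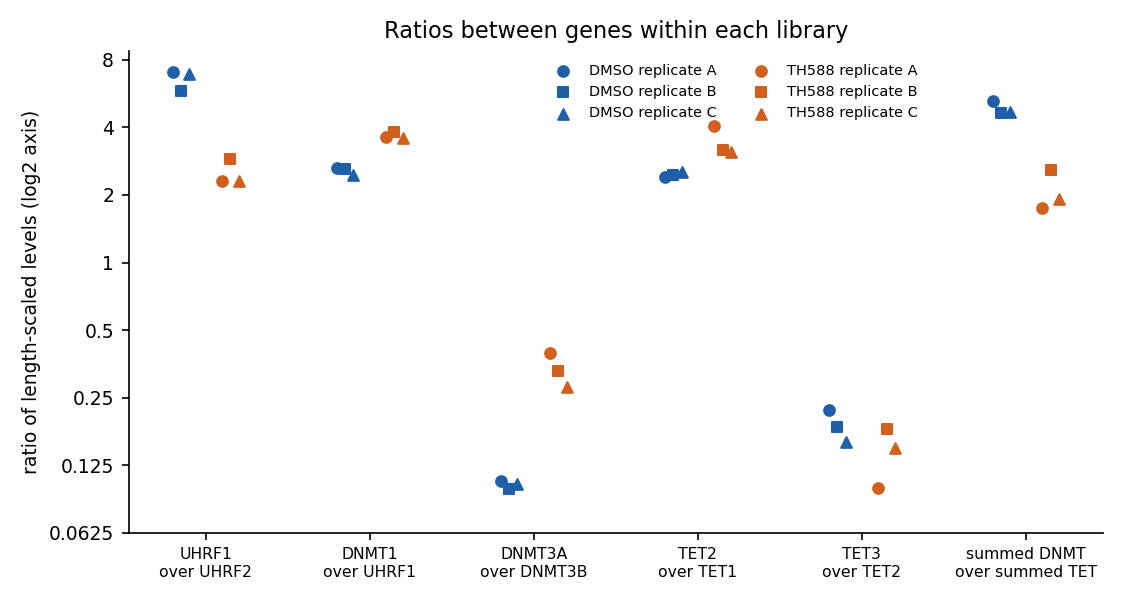
Ratios of levels per exon length within each library (vertical axis, log2 scale) for 5 gene pairs and for the summed DNMT over the summed TET level. Blue symbols are DMSO and orange symbols TH588, and shapes are replicates A, B and C. The groups overlap for *TET3* over *TET2* and for no other ratio shown.

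The order of the 8 genes per exon length changed in 1 place. With DMSO it was *DNMT1* (85.8 CPM per 1000 exon bases), *UHRF1* (33.4), *TET2* (12.9), *DNMT3B* (12.6), *TET1* (5.22), *UHRF2* (5.09), *TET3* (2.41) and *DNMT3A* (1.29). Neither *TET2* and *DNMT3B* nor *TET1* and *UHRF2* differed beyond their spread. With TH588 *TET2* (15.4) stood above *UHRF1* (10.1) in every library, and *DNMT3B* was at 6.27. *DNMT3A* (2.08) lay within the range of *TET3* (2.16), having been below it with DMSO.

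TH588 replicate A gave the lowest TH588 value for *DNMT1*, *UHRF1*, *DNMT3B*, *UHRF2*, *TET1* and *TET3* and the highest for *TET2*. It was also the shallowest library and the one with the largest *SNORD3A* share, and the part of either in these values was not tested. Without it the log2 fold changes were -1.63 for *UHRF1*, -1.10 for *DNMT1* and -0.90 for *DNMT3B*, all still called in edgeR, and 4 of the 8 genes were lower and 2 higher as before. Across the alternatives, *UHRF1* lay between -1.83 and -1.61, *DNMT1* between -1.34 and -1.09, *DNMT3B* between -1.07 and -0.89 and *DNMT3A* between 0.62 and 0.80. These 4 genes were called in each of the 16 alternatives.

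**Figure D4:**
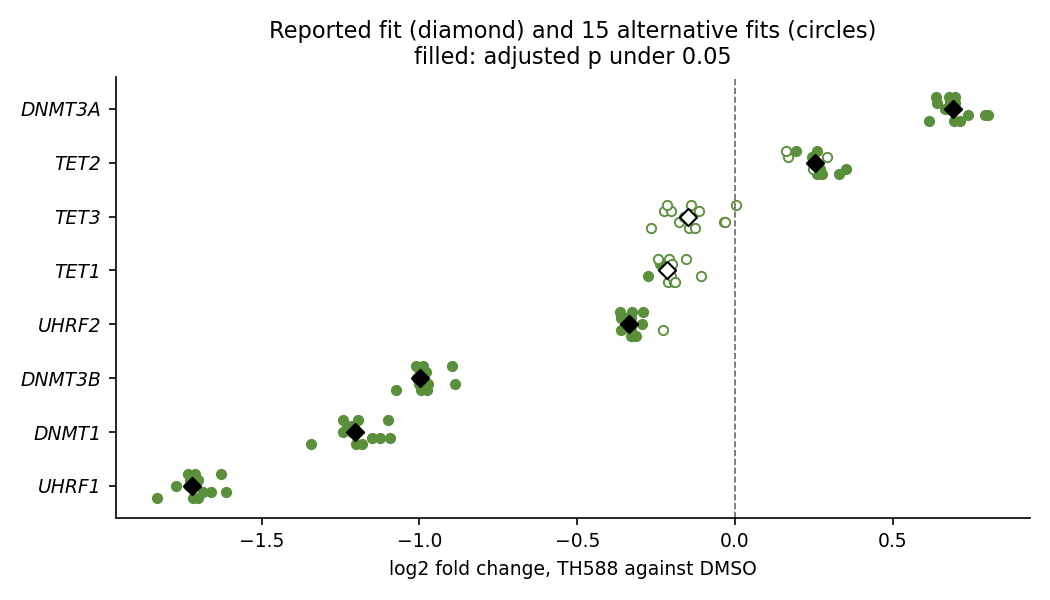
Log2 fold change of each gene (horizontal axis) in the reported fit (diamond) and in 15 alternative fits (circles), filled where the adjusted p was under 0.05. *UHRF1*, *DNMT1*, *DNMT3B* and *DNMT3A* are filled throughout, *UHRF2* is open with library size only, and *TET2* and *TET1* have filled and open circles.

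Transcripts of the S phase of the cell cycle were lower together with the maintenance pair. *UHRF1* belongs to the S phase list used. All of the other 42 genes in it were called lower, against 25.3% of all genes tested. Their median log2 fold change was -1.29, against 0.019 for all genes. Their summed level was 4895 to 5125 CPM with DMSO and 2015 to 2269 CPM with TH588. The largest falls were those of *E2F8*, a cell cycle transcription factor (-2.55), *CLSPN*, a replication checkpoint adaptor (-2.21), and *EXO1*, a DNA repair exonuclease (-2.13). Of the 42 genes, 8 had a lower log2 fold change than *UHRF1* and 23 a lower one than *DNMT1*.

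For each 1000 CPM of these 42 genes, *UHRF1* accounted for 37.1, 32.7 and 33.8 CPM with DMSO and for 22.7, 26.8 and 22.5 CPM with TH588. *UHRF1* was thus lower relative to S phase transcripts as well. On the same scale *DNMT1* overlapped between the groups, with means of 169 and 168, and *DNMT3B* did not, with means of 11.7 and 13.4. The part of a smaller share of cells in S phase in the values of these 3 genes was not tested.

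Of 14 cofactors that work with the writers, 13 were tested, 11 were lower and 1 was higher, against 25.3% lower and 24.2% higher over all genes tested, with a median log2 fold change of -0.77. *HELLS*, a chromatin remodeller needed for normal DNA methylation, fell from 210.7 ± 6.52 to 86.4 ± 9.68 CPM (log2 fold change -1.28), *ZBTB24*, a zinc finger protein, from 52.9 ± 0.835 to 23.5 ± 1.79 CPM (-1.18), and *CDCA7*, which recruits HELLS, from 52.6 ± 3.39 to 25.3 ± 5.63 CPM (-1.04, SD, n = 3 each). Mutations in these 3 genes and in *DNMT3B* cause the same immunodeficiency syndrome, ICF. The deubiquitinase *USP7*, which stabilises UHRF1 and DNMT1, fell by 0.65 on the log2 scale, and the replication clamp *PCNA* by 0.76. *SETDB1*, an H3K9 methyltransferase, rose by 0.49, and other genes share 13.4% of its exon bases. Among the other H3K9 methyltransferases of the list, *EHMT1* was not called (-0.20). *EHMT2* (-0.60), *SUV39H2* (-0.81) and *SUV39H1* (-1.125) were lower, and other genes share 20.3% of the exon bases of *SUV39H1*. *DNMT3L*, the inactive partner of the de novo enzymes, had 0 counts in all DMSO libraries and 2, 3 and 2 counts with TH588, and was not tested. *HELLS*, *CDCA7* and *PCNA* are also in the S phase list.

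Of 8 genes from families that include readers of methylated CpG, 2 were lower and none was higher. The share lower is near the 25.3% over all genes tested, so the count is no result about this list. It had a median of -0.09 that became 0.02 with library size only. *MBD2*, which brings the NuRD complex to methylated DNA, fell from 36.4 ± 2.71 to 22.5 ± 1.39 CPM (log2 fold change -0.70, SD, n = 3 each), and *MBD4*, a glycosylase for mismatched thymine at CpG, from 40.2 ± 0.805 to 30.6 ± 1.86 CPM (-0.39). *MBD1* overlapped between the groups.

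Of 15 partners of the TET enzymes and base removal genes, 14 were tested, 7 were higher and 3 lower, with a median of 0.24. Over all genes tested 24.2% were higher and 25.3% lower, and the share lower in the list is near the latter. *GADD45A*, a stress-induced gene linked to DNA demethylation and a known p53 target, rose from 2.36 ± 0.320 to 11.2 ± 2.11 CPM (2.26). *D2HGDH*, which clears the TET inhibitor D-2-hydroxyglutarate, rose by 0.62 on the log2 scale, and *CXXC4*, a CpG-binding partner of *TET2* encoded beside it, by 0.58. *OGT*, the glycosyltransferase that binds TET proteins, rose by 0.26, and *TDG*, the glycosylase that removes oxidised methylcytosine, was not called (-0.16). *NEIL2* and *APEX1*, of base excision repair, fell by 0.49 and 0.21. *NEIL1*, a glycosylase related to *NEIL2*, and *GADD45B*, a relative of *GADD45A*, were below the abundance set for naming and were chosen after their values were seen. They rose by 1.13 and 0.86, and other genes on the opposite strand, which the kit does not separate, share 30.5% of the exon bases of *NEIL1*. Exons of other genes cover 18.5% of those of *D2HGDH*. Without DMSO replicate B or without C, 6 of these genes were called in place of 10.

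Of 15 enzymes that supply or clear S-adenosylmethionine, the methyl donor of the DNMT enzymes, 14 were tested, 8 were lower and 3 higher, with a median of -0.33. Over all genes tested 25.3% were lower and 24.2% higher, and the share higher in the list is near the latter. *SRM*, spermidine synthase, fell from 101.4 ± 7.67 to 38.4 ± 3.97 CPM (-1.4), *AMD1*, which commits S-adenosylmethionine to polyamine synthesis, by 1.04 and *MTHFD1*, a folate enzyme, by 0.85 on the log2 scale. *MAT2A*, which makes S-adenosylmethionine, fell by 0.81, and its regulatory partner *MAT2B* rose by 0.31. *AHCYL1*, a relative of *AHCY*, rose by 0.28. *AHCY*, which clears the product of methylation, was not called (-0.16). Other genes share 12.4% of the exon bases of *MAT2A* and 11.04% of those of *MTHFD1*.

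**Figure D5:**
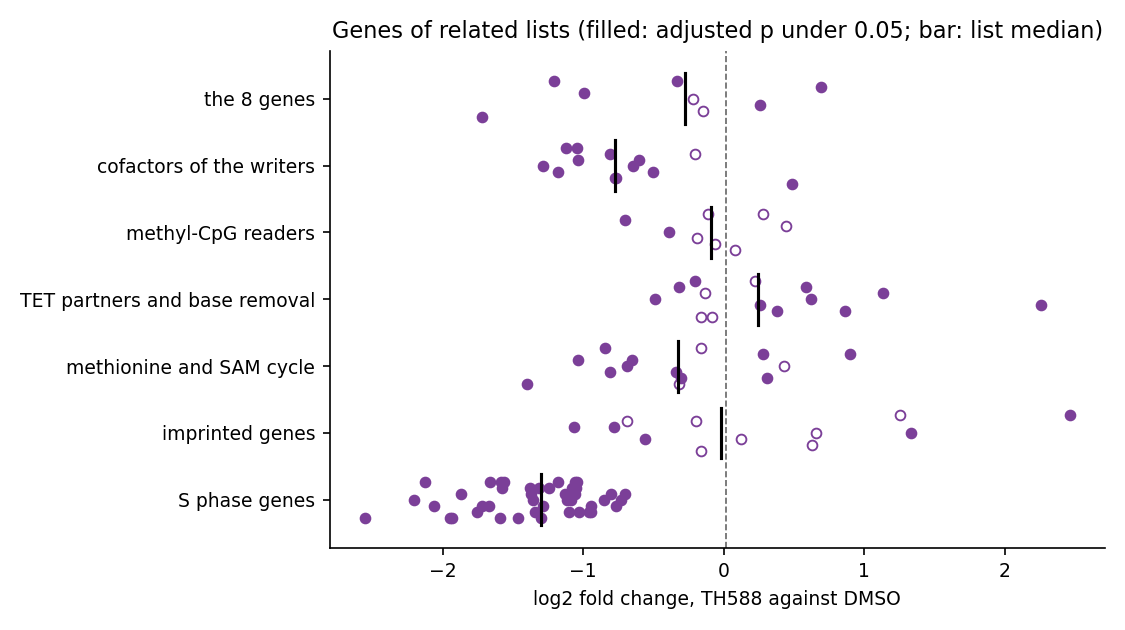
Log2 fold change, TH588 against DMSO (horizontal axis), of every tested gene of 7 lists (rows). Filled points passed an adjusted p under 0.05, black bars are list medians and the dashed line is the median of all genes tested, 0.019. All S phase genes lie to its left, while the TET partners and the imprinted genes fall on both sides.

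Genes that somatic cells keep silent by promoter methylation gave almost no counts in either group. Of 31 such germline genes, 15 had 0 counts in all 6 libraries, 23 had at most 3 counts in every library, and 2 were abundant enough to test. *SYCP3*, of the synaptonemal complex, fell from 2.94 ± 0.290 to 1.96 ± 0.0569 CPM (log2 fold change -0.59, adjusted p = 0.00980 in the edgeR test, SD, n = 3 each). Exons of *CHPT1* on the opposite strand share 14.8% of its exon bases, and reads of the pair cannot be told apart there. *PIWIL2* was at 0.270 and 0.268 CPM and was not called. A library with 0 counts allows 3 counts, or 0.0276 to 0.0365 CPM in the 5 deeper libraries and 0.112 CPM in TH588 replicate A. Another 6 genes exceeded 3 counts in at least 1 library, and the summed level of the list without *SYCP3* was 0.374 to 0.497 CPM with DMSO and 0.374 to 0.745 CPM with TH588, so the groups overlapped. DNA methylation itself was not measured.

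Of 18 imprinted genes, 12 were tested, 3 were lower and 2 higher. These shares are no larger than the 25.3% lower and 24.2% higher over all genes tested, so the counts are no result about this list, and its called genes are given as values. The median was -0.02 and became 0.09 with library size only, 0.11 without DMSO replicate C and -0.158 with at least 10 counts required in every library. *PLAGL1*, a zinc finger protein, fell from 12.5 ± 1.396 to 5.91 ± 0.882 CPM (-1.06), and *GRB10*, a growth factor receptor adaptor, from 25.9 ± 0.606 to 15 ± 1.14 CPM (-0.78, SD, n = 3 each). The other 3 called genes were below the abundance set for naming and are given because the count is small. *H19*, a non-coding RNA, rose from 1.14 ± 0.273 to 2.91 ± 0.723 CPM, *CDKN1C*, a cyclin-dependent kinase inhibitor, rose from 0.269 ± 0.190 to 1.46 ± 0.351 CPM, and *KCNQ1OT1*, a non-coding RNA, fell from 1.95 ± 0.214 to 1.33 ± 0.109 CPM.

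The genes whose profile over the 6 libraries was nearest to each of the 8 were sought among the 9762 tested genes whose mean log2 CPM reached 2, by the distance between log2 CPM values centred on their mean. Nearest to *UHRF1* were *SSRP1* (distance 0.0681), *ZWINT* (0.123) and *MCM3* (0.159), and nearest to *DNMT1* were *DTYMK* (0.0557), *SMC1A* (0.0931) and *NCAPH2* (0.0957). For *DNMT3B* they were *DMC1* (0.0946), *TRIM28* (0.102) and *CEP55* (0.122), and for *DNMT3A* *GLDC* (0.106), *TMEM205* (0.111) and *RILPL2* (0.113). *UHRF2* was nearest to *METTL2B* (0.0466), *ZCCHC7* (0.0511) and *DHX35* (0.0544). *TET2* was nearest to *OGT* (0.0250), *BICRAL* (0.0443) and *ZFP62* (0.0535), *TET1* to *CDK13* (0.0657), *TMOD3* (0.0731) and *MORF4L1* (0.0756), and *TET3* to *PRR12* (0.101), *INAVA* (0.110) and *NHERF1* (0.121). With 6 libraries in 2 groups, such nearness mostly reflects a like difference between the groups.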

How the data were processed

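The authors prepared libraries with a TruSeq RNA kit, version 2, which does not mark strand, aligned reads to GRCh38 with TopHat and counted them per gene with featureCounts (version 1.4.6 per the submitters' processing notes), and deposited the raw counts. UCSC gene models are named in the methods, whereas the table carries Ensembl identifiers with exon positions and lengths. How reads of overlapping or repeated genes were counted is not given in the sources used here. Exon length, used to compare levels between genes, is the merged length in the deposited table.

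From these counts, edgeR 4.0.16 in R 4.3.3 was run on all 6 libraries with TMM scaling, filterByExpr, the quasi-likelihood test and Benjamini-Hochberg adjustment at 0.05, without a term for the replicate letter. Each standard error (SE) was computed as the absolute log2 fold change over the square root of the F statistic, and intervals use the test's degrees of freedom. The limit of 3 counts behind a count of 0 covers counting error only. Alternatives were DESeq2 1.42.0, its size factors, library size only, limma-voom (limma 3.58.1), omitting the filter, requiring 10 counts in each library, leaving out single libraries, a block for the replicate letter, removal of a trend on gene length (alone or together with that block), and an adjusted p under 0.01. Ratios were tested with scipy 1.17.1. In a simulation of this comparison (15282 genes, changes of 1 on the log2 scale), 143 of 190 changed genes and 8 unchanged genes were called, and 117 of 118 changed genes above a mean log2 CPM of 2.

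The 8 genes and all lists were chosen with earlier results of these data known. From each list the 3 largest rises and 3 largest falls were named among called genes whose mean log2 CPM reached 2 and whose groups did not overlap. Some genes that this rule names are not reported here. Others named in the lists are well-known members chosen after their values were seen. Replicates of a group differed by more than counting noise (chi-square per degree of freedom 19.2 to 123).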

Additional observations from a re-analysis of the deposited data

How the results depend on the processing

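*DNMT1*, *UHRF1*, *DNMT3B* and *DNMT3A* kept their direction and call in all 16 alternatives. *UHRF2* was not called with library size only (log2 fold change -0.229). *TET1* passed with the gene length trend removed (-0.238), and leaving out 1 library gave -0.275 to -0.155. *TET2* was not called with the replicate block (0.251), the length trend removed (0.167), both together (0.162) or an adjusted p under 0.01 (0.255), and leaving out 1 library gave 0.194 to 0.330. *TET3* ranged from -0.265 to 0.004 with 1 library left out, reversed without TH588 replicate A. The number of the 8 genes called higher was 1 in place of 2 in the same 4 alternatives, and 1 to 2 with 1 library left out. The cause of these changes was not tested. All genes called ranged from 6805 to 8225 over the other fits, against 7852. The replicate letters did not pair the samples: deviations of same-lettered libraries correlated at -0.26, -0.35 and 0.0075 for A, B and C, and with the letter as a block 7195 genes were called, 7129 of them also without it. No ratio reversed. The exact permutation test of a ratio with 3 against 3 cannot go below p = 0.1, and TH588 replicate A, at 28537837 counts, limits low genes most.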

Other observations

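A few epithelial and matrix markers, read to check the identity of the line, also differed between the groups. These genes were picked out after their values were seen. *EPCAM*, an epithelial adhesion protein, measured 0.548, 0.497 and 0.886 CPM with DMSO (replicates A, B and C in this order) and 4.33, 4.96 and 4.91 CPM with TH588, with no overlap (log2 fold change 2.88, standard error 0.22 in edgeR). *KRT18*, an epithelial keratin, rose from 3.56 ± 0.373 to 6.54 ± 0.435 CPM (SD, n = 3 each). *MUC16*, the ovarian cancer antigen, had 0 CPM in all DMSO libraries and 0.112, 0.0735 and 0.180 CPM with TH588. These values are near the floor, and that of TH588 replicate A is at the limit behind a count of 0 in that library (3 counts, 0.112 CPM). *MUC16* was not tested and is given as values only. *COL1A2*, a fibrillar collagen, rose from 1.43 ± 0.337 to 3.70 ± 0.433 CPM, while *COL1A1* was not called (log2 fold change -0.01).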
